A study of Mus musculus with 6 samples.

Results

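Mitochondrial ribosomal proteins are the nuclear-encoded protein subunits of the ribosome inside mitochondria. Their transcripts were described in mouse hearts that lacked *Ltbp4* in cardiomyocytes and in wild-type hearts. The genes were found by symbol, as *Mrpl* (large subunit) or *Mrps* (small subunit) followed by a number. This rule found 77 of the 23995 genes listed, 48 with a large-subunit symbol and 29 with a small-subunit symbol. All 77 reached 1 FPKM or more in 3 or more libraries and so entered the test, for which 12485 genes qualified in all. FPKM is the number of fragments per kilobase of transcript, scaled to the size of the library.

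The LTBP4-CKO group held 3 heart libraries from mice with an inducible, cardiomyocyte-specific knockout of *Ltbp4*, which encodes a secreted protein that binds latent TGF-beta. The WT group held 3 heart libraries, whose short names refer to floxed mice. Both groups had undergone transverse aortic constriction (TAC), which loads the left ventricle with pressure, at an age of 10 to 12 weeks, so there was no unoperated group. The labels do not give the Cre line, the inducing agent, the sex or the time between surgery and sampling, nor do they say that each library came from a separate animal. Cells other than cardiomyocytes still carry the gene under such a design.

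The mitochondrial ribosome translates the few messages of the mitochondrial genome, all of which encode subunits of the respiratory chain and ATP synthase. Its RNA is made in the mitochondrion, while its proteins are translated in the cytosol and imported. Many subunits descend from bacterial ribosomal proteins, and the others exist in mitochondria but not in bacteria. The heart, which is packed with mitochondria, depends on this machinery, and defects of single human subunits cause childhood cardiomyopathy.

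Regulatory sequence just upstream of the members was compared with that of other genes, using the RefSeq promoter table for GRCm38.p6, which covers 250 bases before to 50 bases after each annotated start. Of the 77 members, 68 matched. The promoters were searched on both strands for the letters GCGCATGC (the core bound by NRF1), AAGATGGC (YY1), CCGGAAG (ETS factors such as GABP) and TATAAA (the TATA box). A gene was scored as holding a motif if any of its promoters had the letters. NRF1 and GABP are known activators of nuclear genes for mitochondrial proteins. The ETS letters stood in 25 of the 68 members (36.8%), against 9.93% of all 27025 genes in the table and 19.7% of the tested ones. The YY1 letters stood in 12 members (17.6%), against 3.19% of all genes and 5.24% of the tested ones. The NRF1 letters were found in 8 members (11.8%), against 3.05% of all genes and 5.97% of the tested ones. By subunit, the NRF1 letters were in 7 of 42 large-subunit members (16.7%) and 1 of 26 small-subunit members (3.85%). The YY1 letters were in 6 of the large (14.3%) and 6 of the small (23.1%). The ETS letters were in 14 of the large (33.3%) and 11 of the small (42.3%). These counts are small. TATAAA stood in 5 members (7.35%), against 15.7% of all genes and 8.89% of the tested ones. The median promoter of a member held 21 CpG pairs, against 7 for all genes, and the tested genes alone were not measured for this. These matches describe letters and do not show binding.

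The stretches printed here show the range of these promoters. Those of *Mrpl33*, *Mrps27* and *Mrpl24* run from 120 bases before the start to 30 bases after it, on the strand of the gene, with the NRF1, YY1 and ETS letters in capitals. *Mrpl33*, the member with the highest level, is on chr5:31613831-31613980 (plus strand) and carries NRF1 letters followed by ETS letters. *Mrps27*, among the highest differences of the small subunit, is on chr13:99344666-99344815 (plus strand) and carries ETS letters before the start and YY1 letters after it. *Mrpl24*, with the lowest difference, is on chr3:87919424-87919573 (plus strand) and carries none of the 3 motifs. The promoters of *Mrpl55*, *Mrpl16* and *Mrpl46*, which had the highest differences of the large subunit, held none of these motifs either. The last stretch, chr7:78783060-78783160, is the plus strand between *Mrpl46* and *Mrps11*, with 30 transcribed bases of each at its ends. These genes lie head to head with 41 bases between their starts (*Mrpl46* from 78783089 on the minus strand, *Mrps11* from 78783131 on the plus strand). *Mrps11* was picked as the neighbour of *Mrpl46* after its values were seen.
Mrpl33: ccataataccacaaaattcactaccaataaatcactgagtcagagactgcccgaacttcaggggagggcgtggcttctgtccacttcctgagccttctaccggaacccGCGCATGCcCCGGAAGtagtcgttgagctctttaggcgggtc
Mrps27: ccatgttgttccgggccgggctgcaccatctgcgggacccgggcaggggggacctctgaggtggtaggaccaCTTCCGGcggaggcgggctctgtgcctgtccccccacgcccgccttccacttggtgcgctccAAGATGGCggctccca
Mrpl24: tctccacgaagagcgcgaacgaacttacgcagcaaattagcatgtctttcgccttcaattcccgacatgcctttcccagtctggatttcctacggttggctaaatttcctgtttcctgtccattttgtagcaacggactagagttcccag
Mrpl46 and Mrps11: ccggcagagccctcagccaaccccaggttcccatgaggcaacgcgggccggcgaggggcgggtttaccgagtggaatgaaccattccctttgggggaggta

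The libraries do not all vary independently, and some stand apart. LTBP4-CKO libraries 2 and 3 were close to each other, as were WT libraries 1 and 3 (Pearson's r across genes 0.9923 to 0.9925, against 0.8939 to 0.9442 for the other 13 pairs). Among genes with the most fragments, the variance of the differences (from median squares) was 2.48 and 2.09 times that of counting alone in these pairs. In the other 13 pairs it was 167 to 532 times that of counting. Each of these pairs was averaged and counted as 1 sample, which left 2 LTBP4-CKO samples (library 1, and libraries 2 and 3) and 2 WT samples (library 2, and libraries 1 and 3). *Ltbp4* itself stood at 139, 199 and 195 FPKM in LTBP4-CKO libraries 1 to 3, against 368, 248 and 357 FPKM in WT libraries 1 to 3. The groups did not overlap, but the difference of -0.86 (log2, SE 0.49) had an adjusted p of 0.999 (limma, Benjamini-Hochberg). The 8 cardiomyocyte markers summed to 56670, 18280 and 18040 FPKM in LTBP4-CKO libraries 1 to 3, against 6195, 22260 and 6226 FPKM in WT libraries 1 to 3, and none was at 0. The 6 atrial markers summed to 13930, 290 and 279 FPKM in the LTBP4-CKO libraries, against 37550, 1587 and 37640 FPKM in the WT libraries. In LTBP4-CKO library 1 nearly all of that sum was *Nppa* (13882 FPKM), which pressure load also raises in ventricles. The labels give the tissue as heart and do not say which part of it was taken. *Sln* and *Myl7*, which mark atrial muscle, were at 0.684 to 5.44 FPKM and 2.82 to 14.3 FPKM in the LTBP4-CKO libraries and at 4.31 and 5.91 FPKM in WT library 2, but at 1847 to 1857 FPKM and 2213 to 2221 FPKM in WT libraries 1 and 3. Fibroblast markers had a list median of -1.13 (10 of 10 estimates below 0), at -0.33 in LTBP4-CKO library 1 and -1.57 in libraries 2 and 3, with summed FPKM of 1152 to 3757 in LTBP4-CKO libraries against 2663 to 5978 in WT libraries. *Pdgfra* was highest in LTBP4-CKO library 1 all the same, and 4 of the 10 were lower in every LTBP4-CKO library than in every WT library. Macrophage markers had a list median of -0.96 (9 of 9 below 0), with summed FPKM of 329 to 352 in LTBP4-CKO libraries against 478 to 905 in WT libraries. The endothelial list median was 0.35, and that of adipocyte markers was -3.49, of which *Adipoq*, *Retn* and *Plin1* were listed at 0 in LTBP4-CKO library 1. Smooth muscle and pericyte markers stood at -1.51 in LTBP4-CKO library 1 and 0.37 in libraries 2 and 3, against -0.52, 0.54 and -0.56 in WT libraries 1 to 3. *Rgs5* of that list was highest in LTBP4-CKO library 1 (53.3 FPKM), and the other 4 estimates were below 0. The 3 tested erythroid markers stood at -1.12 and 0.61 in the same LTBP4-CKO samples, against -1.27, 1.24 and -1.16 in WT libraries 1 to 3. The part that these differences in cell makeup play in the results on the members was not tested. Estimated depth was 14100000, 5900000 and 6800000 fragments for the LTBP4-CKO libraries, against 5600000, 3600000 and 5900000 fragments for the WT libraries. At 10 FPKM, that gives 141, 59 and 68 fragments per kilobase of transcript in the LTBP4-CKO libraries, against 56, 36 and 59 in the WT libraries.

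No member of either subunit passed the test between the groups. On log2(FPKM + 1), 0 of 77 members had an adjusted p under 0.05 (limma, Benjamini-Hochberg over 12485 genes), where 0.00801% of all tested genes, a single gene, did. The lowest adjusted p of a member was 0.999, and 1 member (*Mrpl46*) had an unadjusted p under 0.05, against 374 (3%) of all tested genes. With the 6 libraries as separate samples, 10 members had an unadjusted p under 0.05, against 15.1% of all tested genes, and the lowest adjusted p was 0.182 (limma). The estimates lay mostly above 0 all the same. They were above 0 for 73 of the 77 members (94.8%), against 54.2% of all tested genes, with a median of 0.43 against 0.04. Scaling the libraries to equal FPKM totals moved both medians down, to 0.29 for the members (66 above 0) and -0.08 for all tested genes. In these bulk hearts, a difference in the number of cells of a type and a difference in RNA per cell cannot be told apart.

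**Figure D1:**
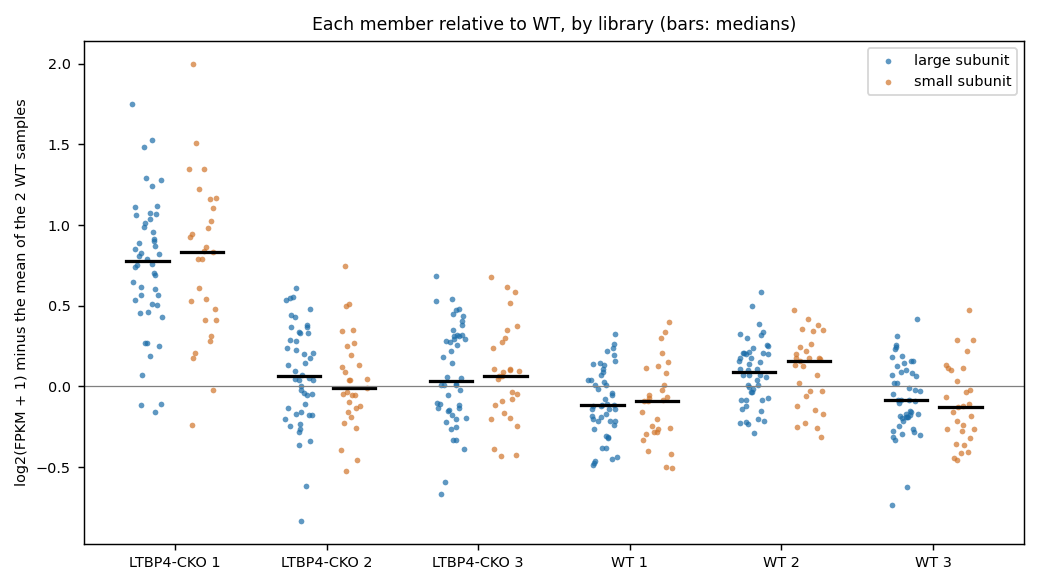
Deviation of each member's log2(FPKM + 1) from the mean of the 2 WT samples, in each library, for genes with large- and small-subunit symbols. Each point is 1 gene and each bar a median; LTBP4-CKO library 1 stands at a median of 0.79 over all members, while the other 5 libraries have medians between -0.11 and 0.11.

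A single knockout library carried the positive median. Set against the mean of the WT samples, the median member stood at 0.79 in LTBP4-CKO library 1, at 0.04 in library 2 and at 0.06 in library 3, against -0.11, 0.11 and -0.10 in WT libraries 1 to 3. LTBP4-CKO library 1 gave the highest of the 6 values for 66 of 77 members (85.7%), where it did so for 26% of all tested genes. That also held for 77 of 81 nuclear-encoded subunits of the respiratory chain and ATP synthase and 13 of 15 mitochondrial translation factors. It held for 4 of 85 cytosolic ribosomal protein genes. Without LTBP4-CKO library 1, 41 of 77 members were above 0, against 49.8% of all tested genes, and the member median was 0.02. In sums, the 77 members came to 9154, 5068 and 5124 FPKM in LTBP4-CKO libraries 1 to 3, against 4650, 5364 and 4883 FPKM in WT libraries 1 to 3. As a share of all FPKM, that was 1.055%, 0.706% and 0.719% in the LTBP4-CKO libraries, against 0.667%, 0.726% and 0.700% in the WT libraries. LTBP4-CKO libraries 2 and 3 thus lay within the range of the WT libraries on both measures, and LTBP4-CKO library 1 lay above it.

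Groups that did not overlap were still more frequent among the members than among all genes, in 1 direction. For 21 members (27.3%), all 3 LTBP4-CKO libraries were above all 3 WT libraries, where 10.4% of all tested genes showed this pattern. The same was seen in 28 of 81 nuclear-encoded subunits of the respiratory chain and ATP synthase and in 4 of 15 mitochondrial translation factors. No gene of either list was lower in every LTBP4-CKO library than in every WT library. Of 85 cytosolic ribosomal protein genes, 2 were higher and 13 lower in this way. With equal FPKM totals the counts were 18 members and 750 genes, where they had been 21 and 1300. The large subunit gave 15 of 48 (31.2%) and the small subunit 6 of 29 (20.7%). No member (0 of 77) was lower in all 3 LTBP4-CKO libraries, where 11.5% of all tested genes were. With equal FPKM totals or equal medians, 2 members were, *Mrpl24* and *Mrps6*. The 15 large-subunit genes were *Mrpl3*, *Mrpl11*, *Mrpl12*, *Mrpl14*, *Mrpl16*, *Mrpl17*, *Mrpl20*, *Mrpl21*, *Mrpl23*, *Mrpl28*, *Mrpl35*, *Mrpl38*, *Mrpl44*, *Mrpl46* and *Mrpl52*. The 6 small-subunit genes were *Mrps9*, *Mrps11*, *Mrps18b*, *Mrps18c*, *Mrps27* and *Mrps34*. The libraries differ in depth and the members in level, and the 6 libraries stand for only 4 samples. Some gaps were small. *Mrps34* had 112.8 FPKM in LTBP4-CKO library 2 against 112.5 FPKM in WT library 2, and *Mrpl52* had 316.0 FPKM in LTBP4-CKO library 3 against 311.7 FPKM in WT library 3.

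The 2 subunits kept nearly the same balance in all 6 libraries. The mean log2(FPKM + 1) of the large-subunit genes minus that of the small-subunit genes was 0.00, 0.07 and 0.02 in LTBP4-CKO libraries 1 to 3, against 0.02, 0.01 and 0.06 in WT libraries 1 to 3. Between the groups it differed by -0.0061, less than the 0.029 by which it varied between samples of a group (SD). The median estimate was 0.44 for the large subunit (45 of 48 above 0) and 0.41 for the small subunit (28 of 29 above 0). In LTBP4-CKO library 1 alone these medians were 0.78 and 0.83, and in libraries 2 and 3 they were 0.05 and -0.01. By origin, the 46 members with a bacterial homologue had a median of 0.44 (43 above 0), and the 31 classed as specific to mitochondria, with *Mrps18a* and *Mrps18b* among them, had 0.42 (30 above 0).

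Levels spread far more between genes than between libraries. Mean FPKM over the 6 libraries ran from 5.63 for *Mrpl19* to 486 for *Mrpl33*, an 86.3-fold span. The median member had 42.7 FPKM (36.9 for the large subunit, 49.4 for the small). Each knockout sample ordered the genes nearly as WT did, with Spearman's rho across the 77 members of 0.947 between LTBP4-CKO library 1 and WT and of 0.981 between LTBP4-CKO libraries 2 and 3 and WT. Proteins of the mature ribosome are present in nearly equal numbers, whereas their transcripts were not. Shorter transcripts had higher FPKM (rho -0.63 across 77 members, against -0.309 across all tested genes with a length). Members with longer transcripts also tended to smaller differences in LTBP4-CKO library 1 (rho -0.239, against 0.0737 across all tested genes), and these points share their libraries and length estimates. The bases taken off each transcript length when depth was estimated also differed between libraries. They were 320 for LTBP4-CKO library 1, the highest value tried, against 260 to 300 for the other libraries. The part of this difference was not tested.

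**Figure D2:**
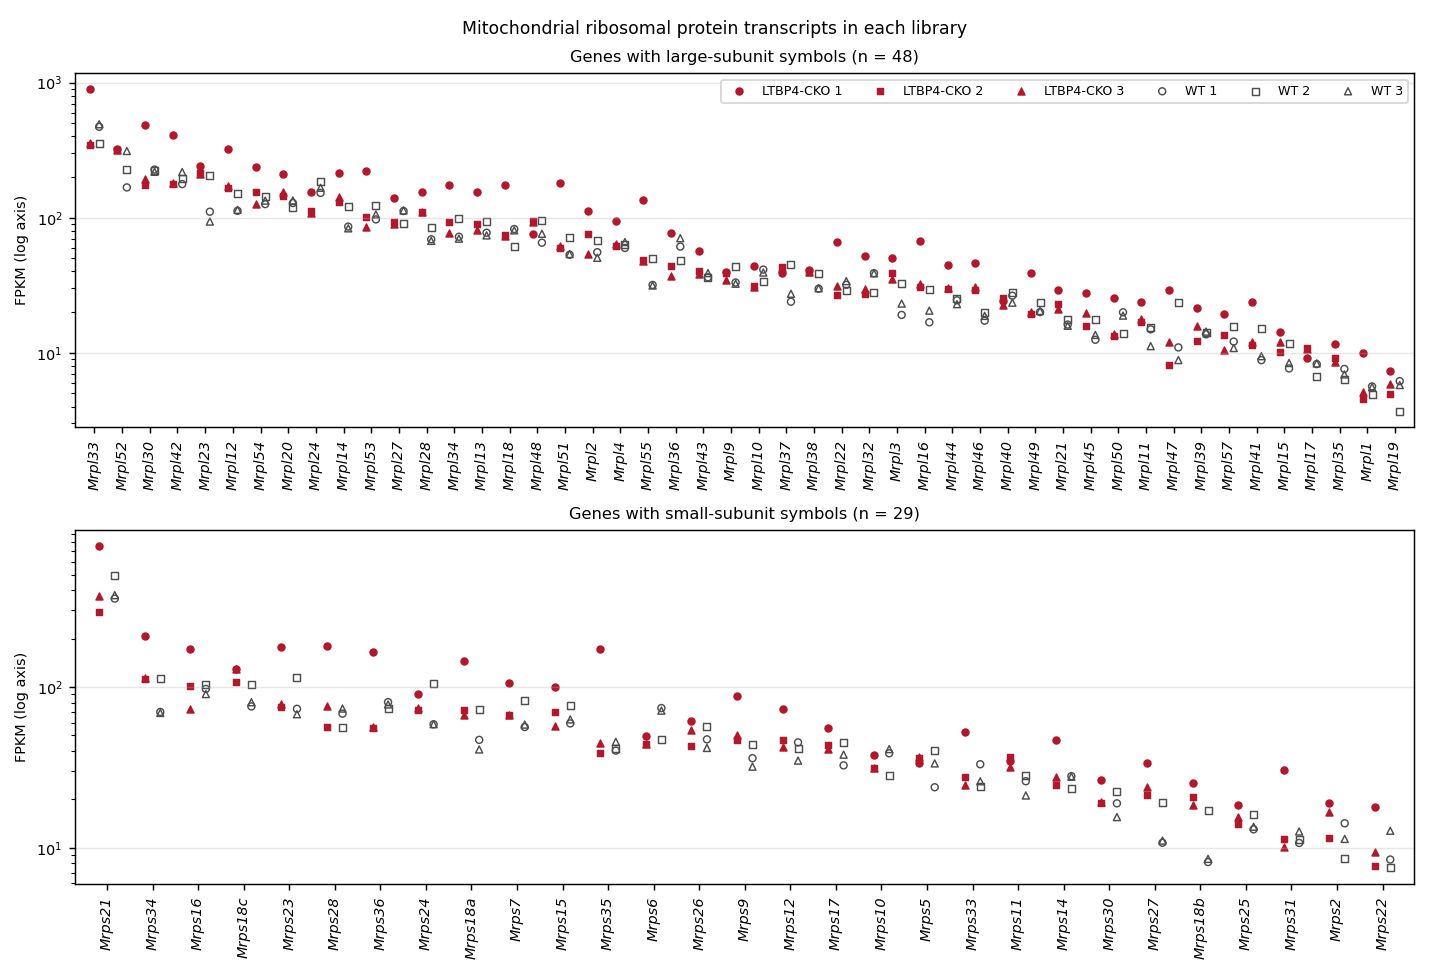
FPKM of every member in each of the 6 libraries on a log axis, ordered by mean level within each subunit, with LTBP4-CKO libraries as filled red symbols and WT libraries as open grey symbols to their right. The circle of LTBP4-CKO library 1 is the highest point for 66 of the 77 members.

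The 3 most abundant transcripts of the large subunit did not behave alike. *Mrpl33*, whose bacterial homologue is a small zinc-binding protein in some species, had 892, 348 and 359 FPKM in LTBP4-CKO libraries 1 to 3, against 471, 353 and 492 FPKM in WT libraries 1 to 3. It was high in LTBP4-CKO library 1 alone, and the other libraries overlapped (difference 0.44, SE 0.62). *Mrpl52*, a subunit specific to mitochondria, had 320, 317 and 316 FPKM in the LTBP4-CKO libraries, against 168, 228 and 312 FPKM in the WT libraries. The 3 LTBP4-CKO libraries were nearly equal, and WT library 3 reached almost the same level (difference 0.45, SE 0.46). Its 2 WT libraries counted as 1 sample, 1 and 3, differed widely here. *Mrpl30* had 484, 176 and 194 FPKM in the LTBP4-CKO libraries, against 227, 222 and 219 FPKM in the WT libraries, so that LTBP4-CKO libraries 2 and 3 were below every WT library while library 1 was above.

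Large-subunit genes with the highest estimates were *Mrpl55*, *Mrpl16* and *Mrpl46*. *Mrpl55*, a homologue of a bacterial large-subunit protein, had 136, 48.9 and 47.8 FPKM in LTBP4-CKO libraries 1 to 3, against 31.8, 50.03 and 31.5 FPKM in WT libraries 1 to 3. WT library 2 overlapped LTBP4-CKO libraries 2 and 3 (difference 1.01, SE 0.58). *Mrpl16*, a core protein close to where tRNAs bind, had 67.5, 30.7 and 32.6 FPKM in the LTBP4-CKO libraries, against 16.8, 29.6 and 20.5 FPKM in the WT libraries. The groups did not overlap, though LTBP4-CKO library 2 and WT library 2 were close (difference 0.95, SE 0.49). *Mrpl46*, which is specific to mitochondria, had 45.9, 29.2 and 30.9 FPKM in the LTBP4-CKO libraries, against 17.3, 19.7 and 18.8 FPKM in the WT libraries. Here every LTBP4-CKO library was well above every WT library, with 38.0 ± 11.2 FPKM in LTBP4-CKO samples and 18.9 ± 1.20 FPKM in WT samples (SD, n = 2 each). Its difference was 0.94 (SE 0.38), with an adjusted p of 0.999 (limma, Benjamini-Hochberg). Without LTBP4-CKO library 1, the difference of *Mrpl46* was 0.65. Its head-to-head neighbour *Mrps11* had 34.6, 36.8 and 31.9 FPKM in the LTBP4-CKO libraries, against 25.9, 28.2 and 21.1 FPKM in the WT libraries (difference 0.41, SE 0.35), also without overlap. In GENCODE M21, which places the ends of these genes further out than RefSeq does, their bodies overlap on opposite strands. Strand was not stated to be used in counting, so reads from bases that both genes may cover cannot be assigned with certainty.

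The lowest estimates of the large subunit belonged to *Mrpl24*, *Mrpl40* and *Mrpl36*. *Mrpl24*, a homologue of a bacterial protein that starts assembly of the large subunit, had 154, 112 and 108 FPKM in the LTBP4-CKO libraries, against 153, 186 and 167 FPKM in the WT libraries. LTBP4-CKO libraries 2 and 3 were the lowest, and LTBP4-CKO library 1 was level with WT library 1 (difference -0.40, SE 0.45). The annotated body of *Mrpl24* overlaps that of *Rrnad1* on the other strand. *Mrpl40*, specific to mitochondria, hardly varied, with 24.3, 25.5 and 22.4 FPKM in the LTBP4-CKO libraries against 26.5, 27.7 and 23.5 FPKM in the WT libraries. *Mrpl36* had 76.5, 43.7 and 37.1 FPKM in the LTBP4-CKO libraries, against 61.1, 48.6 and 70.5 FPKM in the WT libraries, with LTBP4-CKO library 1 at the top and libraries 2 and 3 at the bottom. It overlaps *Ndufs6*, a subunit of respiratory complex I, on the other strand.

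Several large-subunit genes have roles known beyond structure. *Mrpl12*, part of the stalk that recruits translation factors, had 322, 165 and 170 FPKM in LTBP4-CKO libraries 1 to 3, against 112, 151 and 114 FPKM in WT libraries 1 to 3 (difference 0.83, SE 0.52). Its groups did not overlap, and the smallest gap was between LTBP4-CKO library 2 and WT library 2. *Mrpl3* and *Mrpl44*, in which human mutations cause cardiomyopathy, also showed no overlap. *Mrpl3* had 50.2, 38.7 and 35.0 FPKM in the LTBP4-CKO libraries, against 19.1, 32.4 and 23.1 FPKM in the WT libraries (difference 0.70, SE 0.40). *Mrpl44*, which has a ribonuclease-like fold, had 44.8, 29.8 and 30.1 FPKM in the LTBP4-CKO libraries, against 24.5, 25.03 and 22.9 FPKM in the WT libraries (difference 0.57, SE 0.38). The next 3 overlapped between the groups. *Mrpl45*, which anchors the ribosome at the inner membrane, had 27.7, 15.7 and 19.6 FPKM in the LTBP4-CKO libraries, against 12.5, 17.7 and 13.6 FPKM in the WT libraries. *Mrpl32*, whose cleavage by an inner-membrane protease precedes its assembly, had 52.0, 27.2 and 29.6 FPKM in the LTBP4-CKO libraries, against 38.9, 27.8 and 38.7 FPKM in the WT libraries. *Mrpl41* had 23.9, 11.4 and 12.0 FPKM in the LTBP4-CKO libraries, against 8.82, 15.2 and 9.44 FPKM in the WT libraries.

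The least abundant large-subunit transcripts were *Mrpl19*, *Mrpl1* and *Mrpl35*, all with bacterial homologues. *Mrpl35* had 11.6, 9.14 and 8.59 FPKM in the LTBP4-CKO libraries, against 7.59, 6.38 and 6.92 FPKM in the WT libraries, with no overlap (difference 0.51, SE 0.35). *Mrpl1* had 10.0, 4.52 and 5.13 FPKM in the LTBP4-CKO libraries, against 5.64, 4.90 and 5.57 FPKM in the WT libraries. *Mrpl19* had 7.30, 4.92 and 5.92 FPKM in the LTBP4-CKO libraries, against 6.17, 3.68 and 5.77 FPKM in the WT libraries. *Mrpl1* and *Mrpl19* overlapped between the groups.

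**Figure D3:**
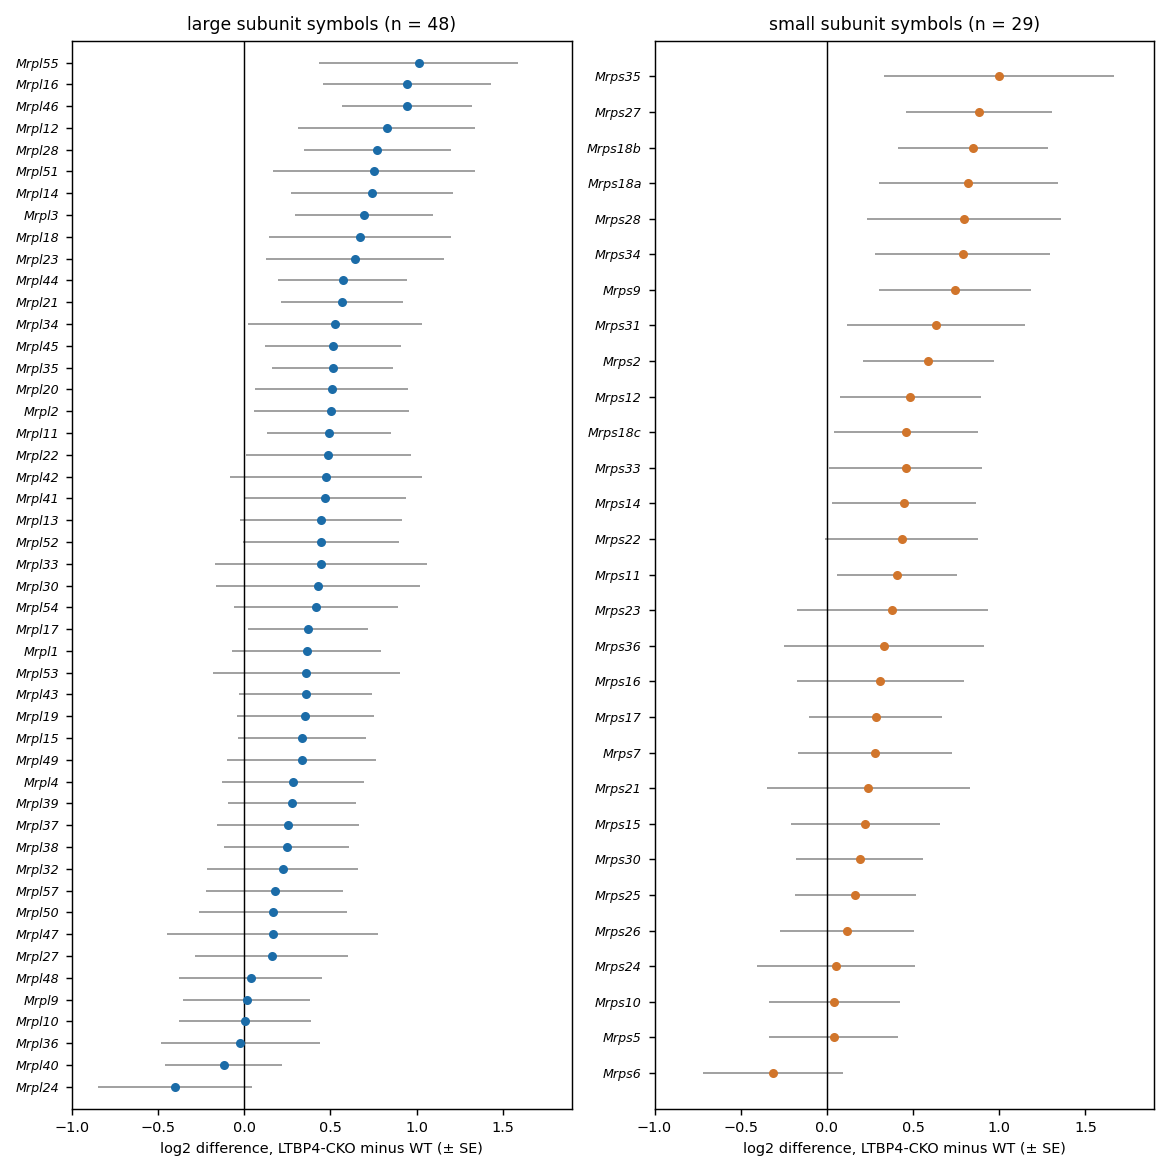
Difference of each member between LTBP4-CKO and WT samples on log2(FPKM + 1), with its standard error, sorted within each subunit. Estimates run from -0.40 for *Mrpl24* to 1.01 for *Mrpl55* in the large subunit and from -0.31 for *Mrps6* to 1.00 for *Mrps35* in the small subunit.

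In the small subunit, *Mrps35* had the highest estimate and the largest gap between knockout libraries. This subunit, specific to mitochondria, had 171, 38.7 and 45.1 FPKM in LTBP4-CKO libraries 1 to 3, against 40.2, 41.3 and 45.6 FPKM in WT libraries 1 to 3. LTBP4-CKO library 1 stood 2.00 above WT on the log2 scale, and LTBP4-CKO libraries 2 and 3 stood at -0.01 (difference 1.00, SE 0.67). *Mrps31*, also specific to mitochondria and of low level, had the same form, with 30.7, 11.4 and 10.1 FPKM in the LTBP4-CKO libraries against 10.7, 11.2 and 12.6 FPKM in the WT libraries. *Mrps27*, a protein with the pentatricopeptide repeats that bind RNA, had 33.8, 21.1 and 23.8 FPKM in the LTBP4-CKO libraries, against 10.7, 19.2 and 11.1 FPKM in the WT libraries (difference 0.88, SE 0.43). There was no overlap, but WT library 2 was nearer to the LTBP4-CKO libraries than to the other WT libraries.

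Mice have 3 relatives of the bacterial protein S18, of which *Mrps18c* is closest to the bacterial form and *Mrps18a* is known to sit in the large subunit despite its name. *Mrps18b* had 25.4, 20.8 and 18.4 FPKM in the LTBP4-CKO libraries, against 8.14, 17.03 and 8.52 FPKM in the WT libraries (difference 0.85, SE 0.44). *Mrps18c* had 130, 107 and 129 FPKM in the LTBP4-CKO libraries, against 75.8, 103 and 80.4 FPKM in the WT libraries (difference 0.46, SE 0.42). Neither overlapped between the groups, and in both WT library 2 came nearest to the LTBP4-CKO values. *Mrps18a* had 146, 71.9 and 66.9 FPKM in the LTBP4-CKO libraries, against 46.9, 72.7 and 40.9 FPKM in the WT libraries, and WT library 2 lay above 2 of the LTBP4-CKO libraries. Its annotated body overlaps *Rsph9* on the other strand. *Mrps30*, another gene whose product sits in the large subunit, had 26.4, 19.1 and 19.1 FPKM in the LTBP4-CKO libraries, against 18.9, 22.3 and 15.5 FPKM in the WT libraries. *Mrps36*, whose product belongs to the 2-oxoglutarate dehydrogenase complex of the citric acid cycle, had 165, 55.2 and 56.2 FPKM in the LTBP4-CKO libraries, against 80.6, 73.1 and 77.9 FPKM in the WT libraries. LTBP4-CKO library 1 was the highest of all for *Mrps36*, and LTBP4-CKO libraries 2 and 3 were the lowest. When *Mrps18a* and *Mrps30* were counted with the large subunit and *Mrps36* was left out, the large-minus-small difference was 0.03, 0.07 and 0.01 in the LTBP4-CKO libraries, against 0.03, 0.03 and 0.04 in the WT libraries.

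Other abundant members of the small subunit were *Mrps21*, *Mrps34* and *Mrps16*. *Mrps21* had 756, 295 and 369 FPKM in LTBP4-CKO libraries 1 to 3, against 355, 494 and 373 FPKM in WT libraries 1 to 3. Its order put LTBP4-CKO library 1 first and WT library 2 second (difference 0.24, SE 0.59). *Mrps34*, in which human mutations destabilise the small subunit, had 208, 113 and 113 FPKM in the LTBP4-CKO libraries, against 70.0, 113 and 69.0 FPKM in the WT libraries. LTBP4-CKO libraries 2 and 3 and WT library 2 were level to 3 digits (difference 0.79, SE 0.51), and the gene overlaps *Mapk8ip3* and *Nme3*. *Mrps16* had 172, 102 and 73.5 FPKM in the LTBP4-CKO libraries, against 97.3, 104 and 90.4 FPKM in the WT libraries.

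A further 4 small-subunit genes have well-known places in decoding, assembly or disease. *Mrps12*, at the decoding centre, had 73.3, 46.7 and 42.6 FPKM in the LTBP4-CKO libraries, against 45.2, 41.2 and 34.8 FPKM in the WT libraries (difference 0.48, SE 0.41). *Mrps14* had 47.0, 24.6 and 27.4 FPKM in the LTBP4-CKO libraries, against 27.9, 23.3 and 27.7 FPKM in the WT libraries. *Mrps22*, mutated in a human mitochondrial disease with cardiomyopathy, had 17.8, 7.70 and 9.37 FPKM in the LTBP4-CKO libraries, against 8.44, 7.48 and 12.7 FPKM in the WT libraries. *Mrps2*, low in level, had 18.9, 11.5 and 16.6 FPKM in the LTBP4-CKO libraries, against 14.2, 8.60 and 11.3 FPKM in the WT libraries. All 4 overlapped between the groups, with LTBP4-CKO library 1 at the top each time.

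*Mrps6*, *Mrps5* and *Mrps10* had the lowest estimates of the small subunit. *Mrps6* had 49.3, 44.2 and 44.3 FPKM in the LTBP4-CKO libraries, against 74.0, 46.8 and 71.3 FPKM in the WT libraries, with WT libraries 1 and 3 apart from the other 4 (difference -0.31, SE 0.41). The gene shares annotated bases with *Slc5a3*, a myo-inositol transporter on the same strand, so the split of reads between them is uncertain. *Mrps5*, which affects the accuracy of translation, had 33.6, 36.4 and 36.8 FPKM in the LTBP4-CKO libraries, against 23.8, 40.5 and 33.5 FPKM in the WT libraries (difference 0.04, SE 0.37). *Mrps10* had 38.0, 31.2 and 31.3 FPKM in the LTBP4-CKO libraries, against 38.7, 28.0 and 41.1 FPKM in the WT libraries (difference 0.04, SE 0.38). In all 3, LTBP4-CKO library 1 was not the highest library, as in 11 of the 77 members.

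**Figure D4:**
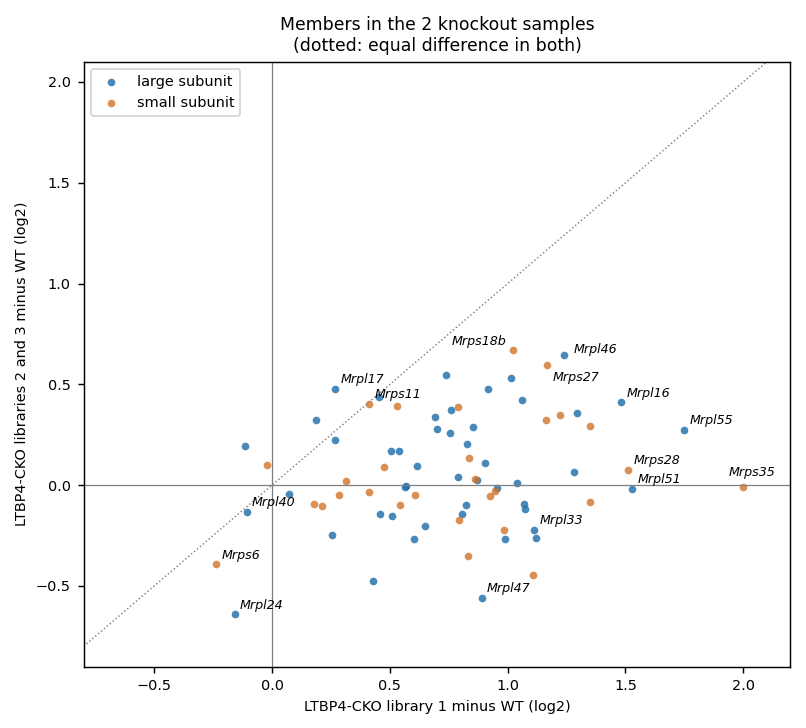
Each member's difference from WT in LTBP4-CKO library 1 (horizontal) and in LTBP4-CKO libraries 2 and 3 (vertical), both on log2(FPKM + 1). Most points lie right of 0 (72 of 77) while the vertical values spread on both sides of 0 (41 of 77 above).

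The 2 knockout samples ranked the members differently. Across the 77 members, Spearman's rho between the difference in LTBP4-CKO library 1 and that in LTBP4-CKO libraries 2 and 3 was 0.173, against 0.132 across all tested genes with a length, and both differences share the WT samples. Of the 77 members, 72 were above 0 in LTBP4-CKO library 1, against 51.3% of all tested genes. *Mrpl46*, *Mrps18b* and *Mrps27* were high in both samples, at 1.24, 1.02 and 1.17 in LTBP4-CKO library 1 and at 0.65, 0.67 and 0.60 in libraries 2 and 3. *Mrpl24*, *Mrps6* and *Mrpl40* were below 0 in both, at -0.16, -0.24 and -0.11 in LTBP4-CKO library 1 and at -0.64, -0.39 and -0.13 in libraries 2 and 3.

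Subunits of the same ribosome that carry other symbols were set beside the members. All 5 had estimates above 0, with a median of 0.57, and none passed the test. *Chchd1* had 252, 138 and 151 FPKM in LTBP4-CKO libraries 1 to 3, against 102, 126 and 90.7 FPKM in WT libraries 1 to 3, with no overlap. All 5 had their highest value in LTBP4-CKO library 1, among them *Ptcd3* (difference 0.68, SE 0.43) and *Gadd45gip1* (0.57, SE 0.42). *Aurkaip1* (0.09, SE 0.46) and *Dap3* (0.03, SE 0.37), a GTP-binding subunit linked to cell death, were nearly level between the groups. *Ict1*, the older symbol of another large-subunit protein, was added after its values were seen, with a difference of 0.52 (SE 0.46).

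The rest of the pathway followed the members in part. Of 15 mitochondrial translation factors, 13 had estimates above 0 (median 0.21), 0.56 in LTBP4-CKO library 1 and 0.08 in libraries 2 and 3. The elongation factor *Tufm* had 152, 83.7 and 80.2 FPKM in LTBP4-CKO libraries 1 to 3, against 48.1, 60.9 and 46.5 FPKM in WT libraries 1 to 3, with no overlap (difference 1.05, SE 0.47). Factors for assembly of the ribosome and modification of its RNA did not share the excess, with 9 of 20 above 0 and a median of -0.06, at 0.14 in LTBP4-CKO library 1. Mitochondrial aminoacyl-tRNA synthetases had 12 of 17 above 0 (median 0.23). *Lars2*, 1 of the 5 below 0, had 32.7, 24.6 and 24.5 FPKM in the LTBP4-CKO libraries, against 166, 50.8 and 142 FPKM in the WT libraries. It was lower in every LTBP4-CKO library (difference -1.61, SE 0.58). Factors for transcription of mitochondrial DNA had 4 of 6 above 0 (median 0.19), at 0.56 in LTBP4-CKO library 1 and -0.31 in libraries 2 and 3. None of the genes in these 4 lists passed the test (limma, Benjamini-Hochberg).

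The ribosome of the cytosol and the respiratory chain lay on opposite sides of 0 in the library with the highest members. Of 85 cytosolic ribosomal protein genes, 72 had estimates below 0, and the list median was -0.56 in LTBP4-CKO library 1 and 0.06 in libraries 2 and 3. Of 81 nuclear-encoded subunits of the respiratory chain and ATP synthase, 80 were above 0, with a list median of 1.58 in LTBP4-CKO library 1 and 0.31 in libraries 2 and 3. The 8 cardiomyocyte markers had a median of 2.27 in LTBP4-CKO library 1 and 0.11 in libraries 2 and 3. Members of the mitochondrial ribosome, at 0.79 and 0.02, thus lay between the respiratory chain and the cytosolic ribosome in LTBP4-CKO library 1. No gene of these lists passed the test. In WT libraries 1 to 3 the marker median stood at -0.67, 0.68 and -0.68, and the member median at -0.11, 0.11 and -0.10. These WT values are centred on the mean of the 2 WT samples and so mirror each other. The part of cell makeup was not tested.

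**Figure D5:**
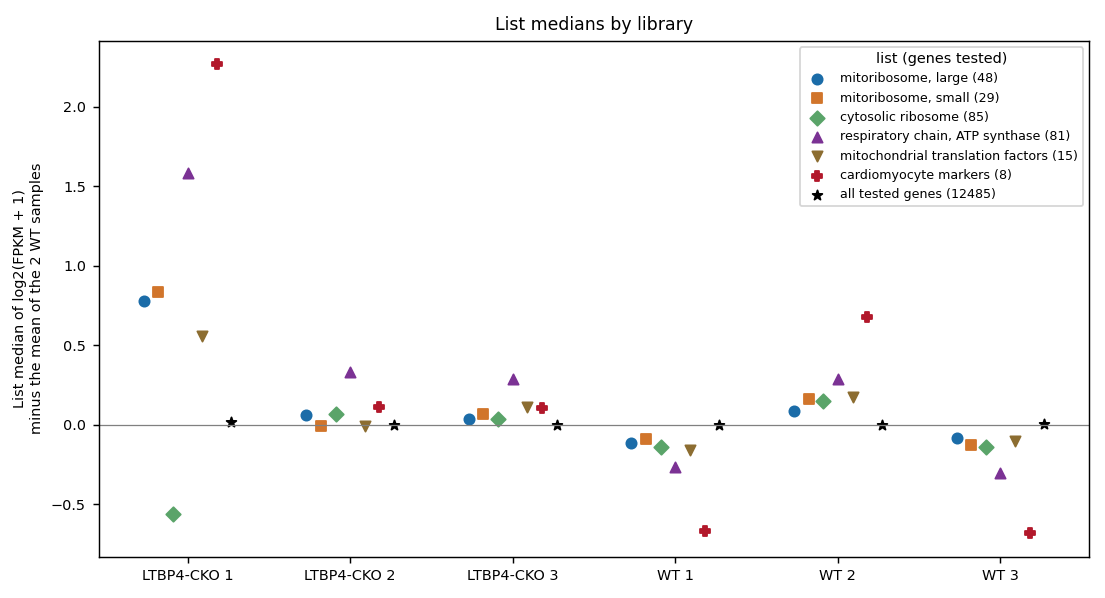
Median of log2(FPKM + 1) minus the mean of the 2 WT samples for 7 gene lists in each library. In LTBP4-CKO library 1 the lists fan out from -0.56 for cytosolic ribosomal proteins to 2.27 for cardiomyocyte markers, with both mitochondrial ribosomal subunits at 0.78 and 0.83.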

How the data were processed

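RNA was extracted from hearts with Trizol and made into Illumina TruSeq libraries, per the labels' protocols. The authors deposited FPKM values per gene, made with Cufflinks on mm10, per the submitters' processing notes (version, aligner, annotation and use of strand: not given in the sources used here). Columns were assigned to libraries by the names in the labels. Depth was estimated from low FPKM values, of which 73.7% to 79.0% fell within 0.15 of a whole fragment, so it is approximate.

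Genes with at least 1 FPKM in at least 3 libraries were tested on log2(FPKM + 1), with a pseudocount of 1, in limma 3.58.1 (R 4.3.3; lmFit, eBayes with trend and robust), two-sided, with Benjamini-Hochberg adjustment over 12485 genes and a threshold of 0.05. With this pseudocount, differences of genes near 1 FPKM come out too small. The fit was also run on simulated data in which genes varied independently. That run could not show how the fit treats differences shared by many genes, such as those between these libraries. P-values measure only the spread between these samples, which may be technical.

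Members, lists and the averaging of close libraries were chosen with earlier results of these data known. Genes named with values were the 3 highest and 3 lowest of each subunit by level and by estimate, a set with known roles, and 5 subunits with other symbols. *Tufm*, *Lars2* and *Mrps11* were added after their values were seen, as were the names of members whose groups did not overlap. Overlapping genes come from GENCODE M21. The alternatives were other pseudocounts, filters and scalings, 6 separate libraries, a record set term, the replicate block and each library left out.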

Additional observations from a re-analysis of the deposited data

How the results depend on the processing

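Of 36 members named by the rule for named genes, each under up to 18 alternatives, 18 kept the sign of their estimate throughout, and 609 estimates kept sign against 39 that reversed it. Leaving out libraries in turn gave -0.10 to 0.82 for *Mrpl1*, -0.26 to 1.12 for *Mrpl30*, -0.20 to 0.65 for *Mrpl32*, -0.22 to 1.11 for *Mrpl33*, -0.47 to 0.43 for *Mrpl36*, -0.016 to 0.96 for *Mrpl41*, -0.21 to 0.29 for *Mrps10*, -0.17 to 0.79 for *Mrps16*, -0.35 to 0.83 for *Mrps21*, -0.056 to 0.92 for *Mrps22*, -0.034 to 0.41 for *Mrps30*, -0.084 to 1.35 for *Mrps31*, -0.0069 to 2.00 for *Mrps35*, -0.44 to 1.11 for *Mrps36* and -0.20 to 0.28 for *Mrps5*. LTBP4-CKO library 1 was the library left out at the lowest value for each of these except *Mrps10* (WT library 2) and *Mrps5* (WT libraries 1 and 3). Comparing LTBP4-CKO libraries 2 and 3 with WT library 2 alone, 1 sample a group and no test, was chosen after seeing the data. It gave a member median of -0.015 (35 members above 0), -0.014 for the large and -0.057 for the small subunit, and a large-minus-small difference of 0.034. Estimates reversed there were -0.017 for *Mrpl1*, -0.26 for *Mrpl30*, -0.36 for *Mrpl41*, -0.0012 for *Mrpl45*, -0.048 for *Mrpl55*, -0.25 for *Mrps16*, -0.066 for *Mrps18a*, -0.57 for *Mrps21*, -0.21 for *Mrps30*, -0.057 for *Mrps31*, -0.39 for *Mrps36* and -0.14 for *Mrps5*. With equal FPKM totals, *Mrps10* was at -0.087 and *Mrps5* at -0.090. Leave-one-out medians ran from 0.024 to 0.79 for all members, from 0.053 to 0.78 for the large subunit and from -0.0069 to 0.83 for the small subunit, with 41 to 74 members above 0. Equal totals gave a member median of 0.29 beside an all-gene median of -0.08, and 2 members (*Mrpl24* and *Mrps6*) lower in every LTBP4-CKO library, as did equal medians (2). Over all genes, limma called 6 higher and 3 lower with no filter, 1 lower with 6 separate libraries, and 1 to 2 higher and 0 to 10 lower with libraries left out. Deviations of same-numbered libraries from their group means had correlations of 0.116, 0.125 and -0.098. Because each group held 1 close pair, this check could not decide whether the numbers pair the libraries. The replicate block gave a member median of 0.29, with 1 gene higher and 0 lower, and *Mrps10* at -0.085, as also with 6 separate libraries (-0.085) and with a record set term (-0.085). The cause of these changes was not tested.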

Other observations

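The members are spread over the genome, with 10 genes on chromosome 11, 8 on chromosome 17 and 7 on chromosome 6. Of the 68 members with a promoter entry, 37 held at least 1 of the NRF1, YY1 and ETS letters, 8 held 2 or more and 31 held none. The median estimate was 0.33 for the 8 members with the NRF1 letters, 0.37 for the 12 with the YY1 letters and 0.45 for the 25 with the ETS letters, against 0.43 for all members. Coding transcripts of the members had a median length of 1220 bases, against 2650 bases for all tested genes.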
